A study of Mus musculus with 4 samples.

Results

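The genes described here are the 37 genes of the mouse mitochondrial genome, taken as every gene whose symbol begins with mt-, of 55536 mouse genes in the deposited tables. They comprise 2 ribosomal RNA (rRNA) genes, 22 transfer RNA (tRNA) genes and 13 protein genes. They were measured by total RNA-seq in T cells from the spleen of virgin male B6CASTF1/J mice aged 66 days, F1 hybrids whose mothers were C57BL/6 and whose fathers were CAST/EiJ. The labels mark the cells by CD3, the complex through which the T cell receptor signals. The 4 biological replicates form 1 group, with no treatment and no second genotype, and are named libraries 1 to 4 by replicate number; each was made from 300 ng of RNA with spike-in RNAs and a directional library kit. All 4 share 1 donor identifier, and nothing in the labels says that they came from separate animals, so the spread between libraries may be technical. Values are deposited expected counts (estimated reads per gene) and TPM (counts per effective length, scaled to the same total in each library), on mm10 with the GENCODE M21 annotation.

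The mitochondrial genome is a small circle inherited through the mother. Both of its strands are transcribed into long precursors, which are cut mainly at the tRNAs that stand between the other genes, so most rRNAs and mRNAs start as stretches of shared transcripts. Its proteins are core subunits of the respiratory chain, and its rRNAs and tRNAs serve the mitochondrial ribosomes that make them. In T cells, oxidative phosphorylation is known to serve resting and memory cells, and mitochondrial translation is needed for proliferation after activation.

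Gene ends and neighbours are shown first, because several results turn on them. All sequences are GENCODE M21 transcript sequences on mm10, 5′ to 3′. The tRNA mt-Tl1 (a leucine tRNA, chromosome M, 2676 to 2750, plus strand) fills the space between the 16S rRNA gene and mt-Nd1 with no base to spare, and at 75 bases it is the longest tRNA here. The serine tRNA mt-Ts2 (11613 to 11671, plus strand) is the shortest, with 59 bases.
mt-Tl1: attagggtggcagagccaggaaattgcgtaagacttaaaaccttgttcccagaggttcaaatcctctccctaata
mt-Ts2: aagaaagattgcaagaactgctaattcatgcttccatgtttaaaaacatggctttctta

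Some protein genes share bases on the same strand, and 2 such places are shown here. The last base of mt-Atp6 is also the first base of mt-Co3 (8607), which is not shown. The end of mt-Atp8 and the start of mt-Atp6, subunits of ATP synthase, overlap by 43 bases (7927 to 7969), which stand in capitals.
mt-Atp8: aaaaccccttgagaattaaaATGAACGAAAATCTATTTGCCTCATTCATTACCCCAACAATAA
mt-Atp6: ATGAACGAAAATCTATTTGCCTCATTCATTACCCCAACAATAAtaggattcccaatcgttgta
The end of mt-Nd4l and the start of mt-Nd4, membrane subunits of complex I, overlap by 7 bases (10167 to 10173), again in capitals.
mt-Nd4l: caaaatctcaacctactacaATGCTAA
mt-Nd4: ATGCTAAaaattattcttccctcacta
In 3 of the 13 protein genes the annotated length was no multiple of 3, and the reading frame ended on a lone T, in capitals below. Such stop codons are known to be completed by the poly(A) tail added after cleavage.
mt-Co3: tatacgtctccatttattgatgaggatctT
mt-Nd4: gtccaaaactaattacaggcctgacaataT
mt-Cytb: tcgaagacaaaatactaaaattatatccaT

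The nuclear genome also holds copies of mitochondrial DNA. In the annotation, 7 unprocessed pseudogenes lay side by side on the minus strand of chromosome 1 (24611535 to 24616197), each matching another mitochondrial protein gene, and 5 of the 7 were identical to their gene over every aligned base. The identical run covered 681 of 684 bases of mt-Co2, 678 of 681 of mt-Atp6, 783 of 784 of mt-Co3, 294 of 297 of mt-Nd4l and 876 of 1378 of mt-Nd4. For mt-Co1, whose copy Gm29216 starts late in the gene, it was the last 479 bases, or 31.0% of the gene. The capitals mark the start of that shared stretch.
mt-Co1: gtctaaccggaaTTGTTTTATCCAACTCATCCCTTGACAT
Gm29216: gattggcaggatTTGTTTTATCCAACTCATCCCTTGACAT
The mt-Nd3 copy Gm28438 differed from the gene at 1 base, T3C, counted from 1 at the 5′ end of the transcript (gene base first, then copy base). Beyond it, 342 bases were identical.
mt-Nd3: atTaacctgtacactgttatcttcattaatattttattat
Gm28438: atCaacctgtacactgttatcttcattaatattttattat
No copy of mt-Atp8 is annotated there. A read that lies wholly in a shared run could come from either place, and the deposited counts divide such reads by estimate.

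The markers of the labelled cell type were present. All 11 T cell markers on the list had a mean TPM of at least 10, and their median was 274 ± 3.94 TPM (SD, n = 4), led by 3 receptor chain genes (658 TPM for Trbc2, 501 TPM for Trac, 435 TPM for Trbc1). Libraries held 14540725 to 17280908 counts of mouse genes. Library 4 stood apart in RNA of other cells. The 8 B cell markers summed to 145 TPM in library 4 and to 13.8 to 19.2 TPM in the other libraries, and the 5 erythroid markers summed to 633 TPM in library 4 and to 15.2 to 62.3 TPM in the others. Of the 6 myeloid markers, S100a8 and S100a9 were higher in library 2, at 11.4 and 13.3 TPM, than in the other libraries, at 2.21 to 3.58 and 3.25 to 4.30 TPM; Lyz2, the highest of the list, was at 14.7 to 15.9 TPM in all 4. Their part in the results below was not tested beyond leaving out each library. In bulk RNA, fewer cells of a type and less RNA per cell cannot be told apart.

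The mitochondrial genome supplied a steady share of the RNA. Its genes took 7.11%, 6.92%, 7.07% and 7.49% of the counts of mouse genes in libraries 1 to 4, with a mean of 7.15% ± 0.243 (SD, n = 4). The libraries lay close together, with library 4 highest. The exact Clopper-Pearson 95% interval in library 1 was 7.09% to 7.12%, far narrower than the spread between libraries. Such intervals and floors cover counting error only, since reads that carry no molecular identifier need not be separate molecules. Measured against the spike-ins, the members had 21.01, 21.7, 20.3 and 24.9 counts per spike-in count, again highest in library 4. On the TPM scale they made up 6.22% ± 0.279 of mouse RNA.

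Nearly all of that share was rRNA. The 12S rRNA mt-Rnr1 (70 to 1024), the RNA of the small mitochondrial ribosomal subunit, had 26236, 25737, 26442 and 28540 TPM over libraries 1 to 4. The 16S rRNA mt-Rnr2 (1094 to 2675), the RNA of the large subunit, had 24716, 25067, 26059 and 27483 TPM. Library 4 was highest for both, and they ranked 5 and 6 among all mouse genes by mean TPM. Together the rRNAs took 87.4% ± 0.664 of mitochondrial counts and the protein genes 12.6% ± 0.664. The rRNAs had 6.95 ± 0.412 times the counts of the protein genes, and 4.53 ± 0.279 times those of the protein genes plus the chromosome 1 copies. The label of the spike-in mixture names libraries reduced in ribosomal RNA, and whether the reduction reached mitochondrial rRNA is not given in the sources used here, so these levels need not be those in the cell.

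The 2 rRNAs were close to 1 to 1. The log2 ratio of mt-Rnr2 to mt-Rnr1 in TPM + 1 was -0.09, -0.04, -0.02 and -0.05, below 0 in each library, with a mean of -0.05 ± 0.03 (SD, n = 4). The exact two-sided sign-flip permutation test gave p = 0.125, the smallest that 4 libraries allow, so no pair ratio here could pass 0.05. That p was the same for all 6 pairs, before and after Benjamini-Hochberg adjustment over them. The sign did not hold, since the ratio was 0.015 ± 0.028 with counts divided by annotated length and 0.11 ± 0.03 in the second quantification, a second deposited transcript table of the same libraries. Across the tRNA shown above, the step to the next gene was large. The log2 ratio of mt-Nd1 to mt-Rnr2 was -4.54, -4.76, -4.88 and -4.76, with a mean of -4.73 ± 0.14, or 26.6-fold lower.

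None of the 22 tRNAs was measurable in these tables. Each was listed at 0 counts in every library and in both quantifications. Their annotated lengths were 59 to 75 bases, while the first quantification set effective length 100 bases below annotated length for every longer member, which left all 22 tRNAs with an effective length of 0. The same held beyond the mitochondrial genome, where 0 of 2452 mouse genes of at most 100 bases had a count. With no effective length, a 0 there gives neither a level nor an upper limit for the tRNAs. In the second quantification their effective lengths were 26.2 to 34.5 bases, and they were listed at 0 as well.

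**Figure D1:**
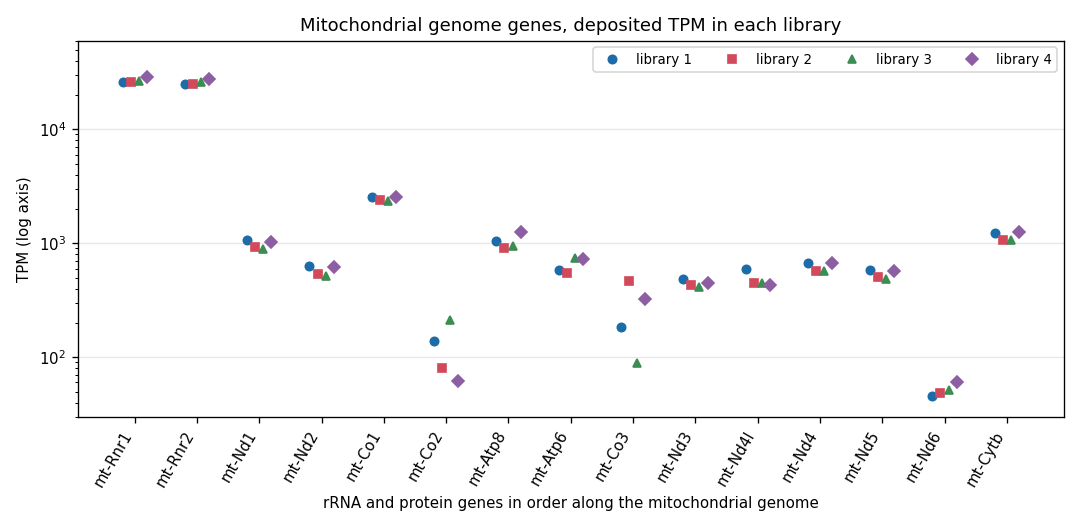
Deposited TPM (log axis) of the 2 rRNA and 13 protein genes in each of the 4 libraries, in order along the mitochondrial genome, with 1 marker per library. The rRNAs lie at 24716 TPM or more, most protein genes lie well below them with the libraries close together, and mt-Co2 and mt-Co3 are spread over a wide range.

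All 13 protein genes were detected in every library. By deposited TPM, mt-Co1, the catalytic subunit of complex IV, was highest, at 2538, 2377, 2349 and 2552 TPM in libraries 1 to 4 (2454 ± 106, SD, n = 4). mt-Cytb, the cytochrome b of complex III, followed at 1218, 1077, 1072 and 1249 TPM (1154 ± 92.5). In both genes libraries 1 and 4 lay above libraries 2 and 3. mt-Nd1, a membrane subunit of complex I, averaged 971 ± 83.0 TPM, and the other complex I genes on the plus strand were lower. They were mt-Nd4 at 621 ± 55.7, mt-Nd2 at 575 ± 57.3, mt-Nd5 at 537 ± 44.6, mt-Nd4l at 480 ± 76.5 and mt-Nd3 at 442 ± 31.1 TPM. Of the 12 pairs of neighbours in the order of the 13 means, 4 were apart, meaning that the higher gene was higher in all 4 libraries and the mean log2 difference exceeded 2 SD.

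mt-Nd6, a complex I subunit and the sole protein gene on the minus strand (13552 to 14070), was the lowest. It had 315, 358, 361 and 370 counts, or 45.8, 48.3, 51.7 and 60.4 TPM, in libraries 1 to 4. Its neighbour mt-Cytb had 20874, 19885, 18659 and 19068 counts. The log2 ratio of mt-Nd6 to mt-Cytb was -4.70, -4.45, -4.35 and -4.35, with a mean of -4.46 ± 0.17, or 22.0-fold lower. The mt-Nd6 libraries stood clear of those of every other protein gene in the order with copies described below. Its transcript was also the odd one in base composition, with 28.1% G and 5.97% C, whereas 12 of 12 plus-strand protein genes had more C than G. It overlaps the end of mt-Nd5 (11742 to 13565) on the other strand. The library kit is directional, but whether counting used strand is not given in the sources used here, so sense and antisense reads at mt-Nd6 cannot be told apart.

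Among the genes with a near full-length copy on chromosome 1, the counts were divided very differently from one gene to the next. For mt-Co2, the subunit of complex IV that takes electrons from cytochrome c, the gene received 1336, 838, 2077 and 533 counts in libraries 1 to 4, and its copy Gm28661 received 25814, 25510, 22564 and 23396. The gene's share of the pair was 4.69% ± 2.73 (SD, n = 4). For mt-Co3, the third mitochondrial subunit of complex IV, the gene received 2078, 5690, 1022 and 3267 counts and the copy Gm28437 received 21479, 18432, 21488 and 18298. Its share was 13.02% ± 8.28, from 4.54% in library 3 to 23.6% in library 2. The pair sums varied far less than the genes' own counts, at 27151, 26348, 24641 and 23929 counts for mt-Co2 with its copy and 23557, 24122, 22510 and 21565 counts for mt-Co3 with its copy.

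mt-Atp6, the proton channel subunit of ATP synthase, received 5603, 5634, 7253 and 6225 counts against 28302, 26991, 22552 and 23849 for Gm10925, a share of 19.7% ± 3.58. mt-Nd4l received 1918, 1556, 1484 and 1230 counts against 228, 449, 466 and 849 for Gm10222, a share of 75.6% ± 12.4. Here library 1 had the highest gene count and the lowest copy count, and library 4 the reverse. mt-Co1, most of which has no counterpart in its copy, kept 89.98% ± 0.579 of its pair. mt-Nd3 and mt-Nd4 kept 100%, although the mt-Nd3 copy differs by the single base shown above. Over all 7 pairs, the copies held 0.480% ± 0.0342 of the counts of mouse genes, and their share of the protein genes plus copies was 35.1%, 34.4%, 34.8% and 34.7% in libraries 1 to 4.

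**Figure D2:**
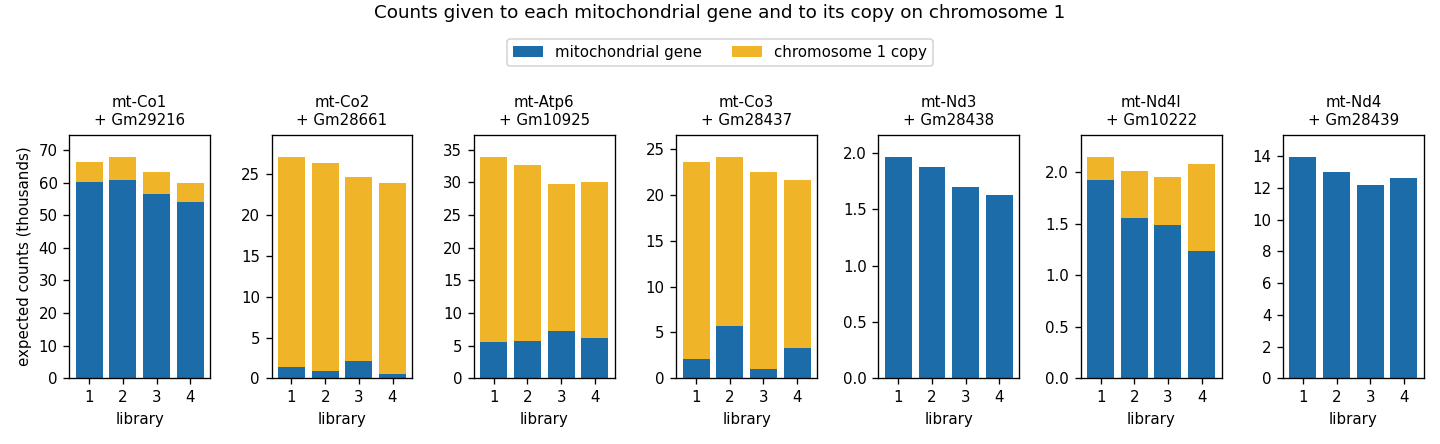
Expected counts (linear axis from 0) given to each mitochondrial gene and, stacked on it, to its annotated copy on chromosome 1, in libraries 1 to 4, with 1 panel per pair and its own scale. In mt-Co2, mt-Atp6 and mt-Co3 most counts went to the copy and the gene's own part varied between libraries, while the height of the whole bar varied little.

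Other deposited estimates divided the same reads differently. The first quantification also gives a posterior mean count, which averages over the possible assignments, and its posterior standard deviation. For mt-Co2 the posterior mean was 8226 counts, 6.88 times the expected count of 1196, and the posterior standard deviation was 23.9% of it. The corresponding factor was 3.13 for mt-Co3 and 1.58 for mt-Atp6. In the second quantification the gene's share of its pair was 11.3% ± 3.67 for mt-Co2, 42.6% ± 8.74 for mt-Co3, 59.3% ± 3.04 for mt-Atp6, 81.3% ± 11.3 for mt-Nd3 and 100% for mt-Nd4l. With posterior mean counts the share was 32.3% ± 4.71 for mt-Co2, 31.1% ± 4.11 for mt-Atp6 and 41.2% ± 6.35 for mt-Co3, the last within its spread of the second quantification. Matches to 10 other transcripts elsewhere in the annotation carried 14.0 to 20.0 counts per library in all. The mothers of these mice were C57BL/6, the strain of the reference, and the copies of the CAST/EiJ chromosome were not analysed here.

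With each copy's counts added to its gene, and the sum divided by the gene's effective length, the order of the mRNAs was another one. mt-Atp6 stood highest at 3337 ± 246 on the TPM scale, followed by mt-Co1 at 2727 ± 105, mt-Co2 at 2680 ± 160 and mt-Co3 at 2056 ± 85.8. mt-Co2 stood 9 places higher than in the order of the genes alone. mt-Cytb came next at 1154 ± 92.5, then mt-Atp8, the small subunit of ATP synthase, at 1037 ± 153, and all complex I genes below them. mt-Nd4l averaged 639 ± 66.9, and its neighbour mt-Nd4 averaged 621 ± 55.7. In this order 8 of the 12 neighbouring pairs were apart. Those that did not differ beyond their spread were mt-Co1 and mt-Co2, mt-Cytb and mt-Atp8, mt-Atp8 and mt-Nd1, and mt-Nd4l and mt-Nd4. The rank correlation over the 13 genes between the orders with and without copies was 0.43 as a description.

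The same sums narrowed the spread among plus-strand mRNAs. The highest plus-strand protein gene was 7.55 ± 0.241 times the lowest with copies, against 28.6 ± 9.40 times with the genes alone (SD, n = 4 each). By complex, the medians with copies were 2670 ± 148 on the TPM scale for complex IV, 2187 ± 191 for ATP synthase, 1154 ± 92.5 for complex III and 575 ± 57.3 for complex I. For the genes alone the complex IV median was 299 ± 130 TPM. The second quantification with copies gave mt-Co1, mt-Atp6, mt-Co2 and mt-Co3 as the highest 4 genes, in that order, and mt-Nd6 as the lowest gene with reads. It listed mt-Atp8 at 0 in all 4 libraries, against 907 to 1246 TPM in the first.

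**Figure D3:**
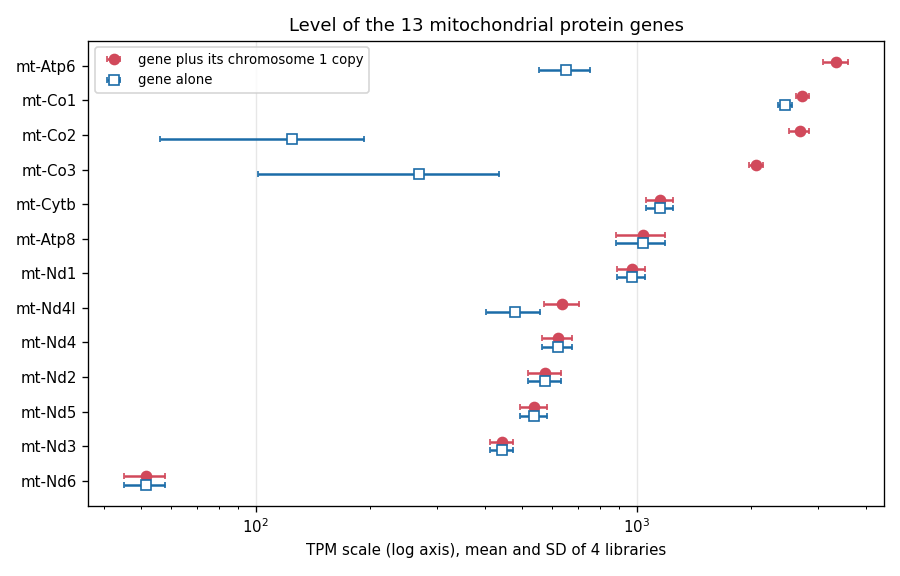
Level of the 13 mitochondrial protein genes on the TPM scale (log axis), as the mean and SD of 4 libraries, for each gene plus its chromosome 1 copy (filled circles) and for the gene alone (open squares). mt-Co2, mt-Co3 and mt-Atp6 are the genes whose 2 values lie far apart; genes without a counted copy have equal values.

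Within complexes and overlapping pairs, the ratios turned on the copies too. mt-Co3 to mt-Co1 had log2 ratios of -3.77, -2.33, -4.70 and -2.96 for the genes alone, a mean of -3.44 ± 1.02 (SD, n = 4). With copies the mean was -0.41 ± 0.01, in the second quantification -1.60, and with posterior mean counts -1.55 ± 0.22. mt-Atp8 to mt-Atp6, which overlap as shown above, had log2 ratios of 0.84, 0.72, 0.33 and 0.77, a mean of 0.67 ± 0.23. The sign turned to -1.69 ± 0.13 with copies. The ratio was -0.077 ± 0.231 with counts per annotated length and 0.0025 ± 0.192 with posterior mean counts, both 0 within their spread. mt-Nd4l to mt-Nd4 had ratios of -0.16, -0.36, -0.34 and -0.66, a mean of -0.38 ± 0.20. With copies the mean was 0.038 ± 0.048, which is 0 within its spread. In the second quantification, which gave the copy Gm10222 no counts, the mt-Nd4l to mt-Nd4 ratio was -0.45 ± 0.15. It was -0.38 ± 0.08 with posterior mean counts and -0.87 ± 0.21 with counts per annotated length. In these 3 settings it was below 0 in all 4 libraries. None of these ratios could pass the test with 4 libraries, as said above.

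The next comparison asked which members varied over the libraries beyond the usual spread of similarly abundant genes. edgeR's goodness-of-fit test on rounded expected counts, with trended dispersion and Benjamini-Hochberg adjustment, called 183 of 13118 genes at an adjusted p below 0.05, which is 1.4% of the genes tested. All 15 rRNA and protein genes were tested and 3 were called. These were mt-Co3, with an adjusted p of 2.34e-69 and a range over the libraries of 2.42 on the log2 CPM scale, mt-Co2 with 6.28e-37 and 1.81, and mt-Nd4l with 0.00697 and 0.58. The range had a median of 0.32 over the 15 genes and 0.27 over all genes tested.
mt-Co3 was highest in library 2 and lowest in library 3, mt-Co2 highest in library 3 and lowest in library 4, and mt-Nd4l highest in library 1 and lowest in library 4, so these 3 genes shared no order of libraries. Of the 5 copies with enough counts to test, Gm10222, the mt-Nd4l copy, was called (adjusted p = 8.09e-20), with its lowest level in library 1 and its highest in library 4.

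With the copies' counts added to their genes, edgeR's test called none of the 15, while 188 of 13113 genes were called overall (1.43%). At an unadjusted p below 0.05 there were 3 members, mt-Nd1, mt-Nd2 and mt-Atp8, against 6 for the genes alone. Over all genes tested, 614 of 13113 were below 0.05 with copies and 603 of 13118 for the genes alone. No other tool was run on the sums. With DESeq2's dispersion trend in place of edgeR's, and without copies, 180 of 13118 genes were called (1.37%). Among them were 4 members, mt-Atp6 (adjusted p = 0.0112, and 0.195 with edgeR's trend) being the addition. Without library 1, mt-Nd4l was no longer called (adjusted p = 1), and without library 2, 3 or 4 all 3 calls held. The range of mt-Co2 fell to 0.23 on the log2 scale with its copy, against 1.81 alone, and that of mt-Co3 to 0.15, against 2.42 alone. With posterior mean counts mt-Co3 was the only member called, with an adjusted p of 0.00698, while 190 of 13192 genes were called in all (1.44%).

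Below the threshold, the plus-strand mRNAs lay in a common pattern. With copies, 12 of 12 plus-strand protein genes were above their own mean in library 1, by 0.08 to 0.19 on the log2 CPM scale, and 12 of 12 were below it in libraries 2 and 3. In library 4, 11 of 12 were above it. The rRNAs, transcribed from the same strand, ranged over 0.07 for mt-Rnr1 and 0.06 for mt-Rnr2. mt-Nd6, on the other strand, was lowest in library 1 and highest in library 4, with a range of 0.29. These genes are cut from shared precursors and are not independent, none passed the test, and the pattern is given as a description.

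**Figure D4:**
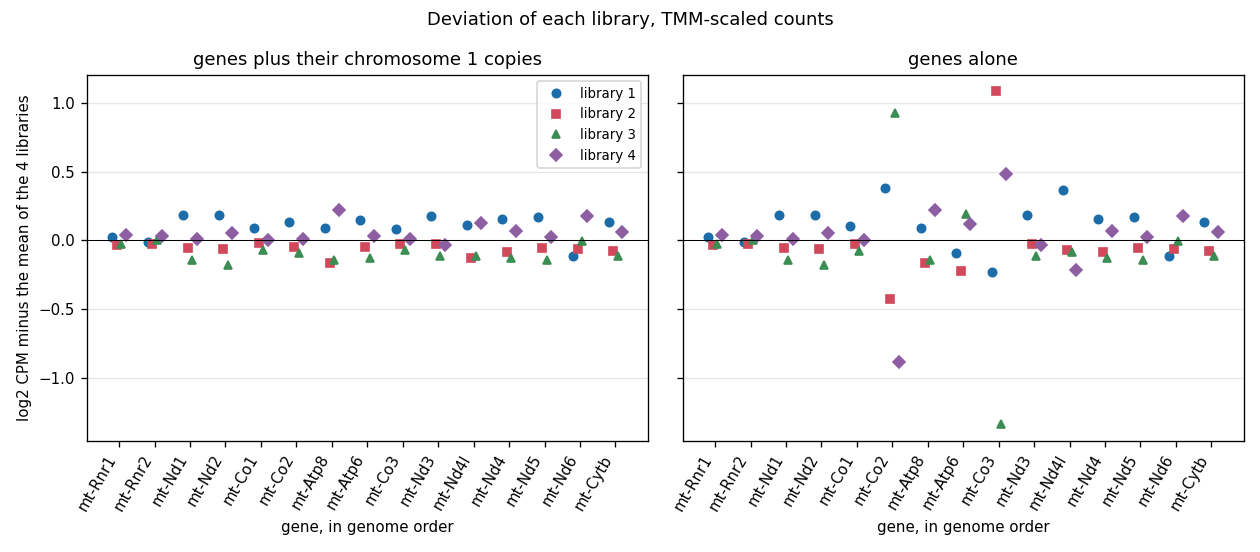
Deviation of each library from the mean of the 4 libraries (log2 CPM, TMM-scaled) for the 15 rRNA and protein genes in genome order, with copies added on the left and for the genes alone on the right. On the left every plus-strand protein gene is above 0 in library 1 and below 0 in libraries 2 and 3, and on the right mt-Co2 and mt-Co3 reach from -1.34 to 1.08.

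The respiratory complexes join mitochondrial subunits to nuclear ones. Apart from mt-Nd6, the mitochondrial genes with copies were the higher ones in the first quantification. Of 38 listed nuclear partners found in complexes I, III, IV and ATP synthase, 37 were tested, edgeR called 0, and 0 had an unadjusted p below 0.05. In complex IV, the 3 mitochondrial genes with copies had 41.2 ± 2.80 times the median TPM of the 10 nuclear partners, which was 65.0 ± 3.64 TPM. The highest partners were Cox4i1 at 147 ± 5.77 TPM, Cox8a at 87.7 TPM and Cox5b at 78.1 TPM, subunits around the catalytic core. In ATP synthase the factor was 40.7 ± 3.51 over a partner median of 53.8 ± 1.36 TPM, with Atp5b, the catalytic beta subunit, at 216 ± 16.04 TPM, Atp5a1, the alpha subunit, at 120 TPM and Atp5h at 83.7 TPM highest. The lowest of these partners, Atp5g2, was at 2.89 TPM, but at 132 TPM in the second quantification. The factor was not computed there. In complex III mt-Cytb stood 32.4 ± 5.62 times above a partner median of 36.1 ± 3.73 TPM, with Uqcrh at 119 TPM, Uqcrc1 at 64.2 TPM and Uqcrq at 56.4 TPM highest. In complex I only 7 core nuclear subunits were listed, and the accessory subunits were not examined. Over these 7 the factor was 18.7 ± 1.84 and the partner median 30.8 ± 1.63 TPM, with Ndufs3 at 52.0 TPM highest. Complex II, which has no mitochondrial gene, had a median of 33.8 ± 1.49 TPM over 4 genes, with its flavoprotein Sdha highest at 52.6 TPM.

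mt-Nd6 was the exception in level. It had 0.855, 0.940, 1.00 and 1.17 times the TPM of the highest of the 7 listed complex I partners in libraries 1 to 4, so their ranges overlapped. In complex IV, the lowest mitochondrial gene stood 14.0 ± 0.770 times above the highest partner with copies, but at 0.639 ± 0.246 times that partner without them. In complex III and ATP synthase the lowest mitochondrial gene was above the highest partner in all 4 libraries either way in the first quantification. The second quantification listed mt-Atp8 at 0 in all 4 libraries, against a mean of 253 TPM for Atp5b.

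**Figure D5:**
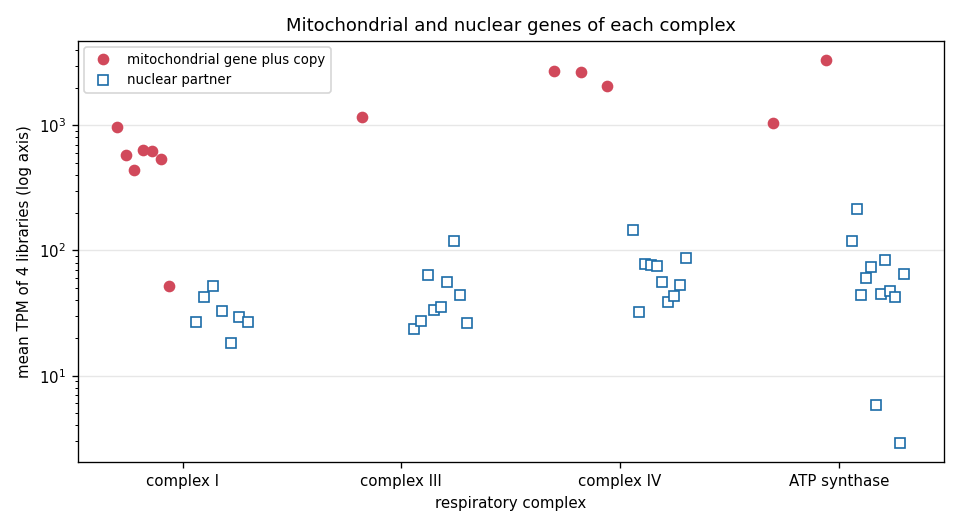
Mean TPM over 4 libraries (log axis) of mitochondrial genes plus their chromosome 1 copies (filled circles) and of their nuclear partners (open squares) in each respiratory complex, with 1 point per gene. The mitochondrial genes lie above the partners of their complex except mt-Nd6, the lowest circle in complex I, which lies at the level of the highest of the 7 partners listed there.

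Nuclear genes that serve mitochondrial DNA and RNA were examined as 3 lists. Of the 18 genes for maintenance and transcription of the mitochondrial genome, all had a mean TPM of at least 1 and their median was 8.10 ± 0.379 TPM. edgeR called 0 of them, and 0 had an unadjusted p below 0.05. The highest were Polg, the catalytic subunit of the mitochondrial DNA polymerase, at 48.4 TPM, Mterf3, of the mitochondrial transcription termination factor family, at 26.0 TPM and the single-stranded DNA binding protein Ssbp1 at 22.5 TPM. Of 37 listed genes for mitochondrial RNA processing and stability, 36 were found, edgeR called 0, and 1 had an unadjusted p below 0.05. Tbrg4, an RNA stability factor of the FASTK family, led with 50.2 TPM, ahead of the tRNA methyltransferase Nsun2 at 41.3 TPM and Ptcd3, a protein of the mitochondrial ribosome, at 38.7 TPM. For the tRNAs that could not be counted, the 23 genes of mitochondrial tRNA charging had a median of 8.05 ± 0.369 TPM, and 1 was called. That gene was Lars2, the mitochondrial leucyl-tRNA synthetase, with 674, 246, 288 and 208 TPM in libraries 1 to 4 and an adjusted p of 2.47e-51. The second quantification gave a Lars2 mean of 1210 TPM, against 354 ± 216 TPM in the first, so its level differed between quantifications. Library 1 stood far above the rest for Lars2 in the first quantification. Whether the reads counted at Lars2 came from the synthetase mRNA was not tested. No link between Lars2 and the pattern of the plus-strand mRNAs was tested. The next genes of that list were the threonyl-tRNA synthetase Tars2 at 40.6 TPM and the glycyl-tRNA synthetase Gars at 30.9 TPM.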

How the data were processed

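Total RNA of 4 libraries of 1 group was analysed. Per the submitters' text, values refer to mm10 and GENCODE M21; aligner and quantifiers: not given in the sources used here. Deposited expected counts are estimated counts per gene with shared reads divided by estimate, and the deposited TPM divide them by effective length. Both were made per library by the authors. A second deposited transcript table (estimated counts and tpm) was summed per gene. Spike-ins (97) and 26248 numeric identifiers, at most 8.75e-05% of counts, stayed out of totals and tests.

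Expected counts were rounded to whole numbers for edgeR 4.0.16 (R 4.3.3; TMM, filterByExpr, intercept only, trended dispersion, goodness-of-fit per gene, Benjamini-Hochberg at 0.05). On simulated counts over 12879 genes, the test called 72.9% of 96 genes made 2-fold different in 1 library, 98% of 99 at 4-fold, and 1 of 12684 left unchanged. The simulated counts followed the fitted dispersion trend exactly. They cannot show how often real genes that scatter about the trend are called. Ratios used log2(TPM + 1) and an exact sign-flip test over libraries (scipy 1.17.1), which understates low genes. Copies were matched with blastn 2.17.0 among M21 transcripts at 90% identity over 100 bases. A floor of 3 counts is 0.190 CPM in library 1. DESeq2 1.42.0 served as an alternative. The rule for names was all members, up to 3 genes of highest mean TPM in each list and every listed gene called. Of what it covers, tRNAs other than mt-Tl1 and mt-Ts2 are given as a class, B cell and erythroid genes as sums, complex II genes other than Sdha within their median, and nuclear-retained RNAs and some complex I genes that the rule covers are not reported here. The members and lists were chosen with earlier results of these data known.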

Additional observations from a re-analysis of the deposited data

Results flagged for a closer look

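Each set of 4 libraries was examined for a library far from the others (Dixon's criterion at 95%), over 74 results. Of these, 2 met it, and chance alone gives about 1 in 20. mt-Nd4l was highest in library 1, at 593 TPM, with the other libraries between 427 and 452 TPM. The summed TPM of mt-Nd4l and its copy Gm10222 did not meet the criterion, at 665, 578, 596 and 726 in libraries 1 to 4. Ndufs3, a nuclear subunit of complex I, was highest in library 1, at 53.6 TPM, with the others between 51.4 and 51.7 TPM, a small difference in size.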

How the results depend on the processing

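No paired analysis was possible because there is 1 group. Adding copies and using posterior mean counts were chosen after seeing the data. Of 183 genes called, the count was 279 with no filter and 353 with edgeR's common dispersion, and 116 to 146 without 1 library (lowest without library 4, 118 without library 1). These were 1.18%, 2.69% and 0.873% to 1.1% of all genes tested. The members called, of 15 tested, numbered 3, 0 with copies, 1 with posterior mean counts and 2 to 3 without 1 library. With spike-in scaling (0.938% of all genes called) or edgeR's common dispersion they numbered 2. With DESeq2's dispersion trend (1.37%) they numbered 4. The log2 ratio of mt-Rnr2 to mt-Rnr1 reversed to 0.11 in the second quantification, and that of mt-Atp8 to mt-Atp6 reversed to -1.69 with copies. Other values changed sign but were 0 within their spread. These were 0.015 for mt-Rnr2 to mt-Rnr1 and -0.077 for mt-Atp8 to mt-Atp6, both per annotated length, and 0.038 for mt-Nd4l to mt-Nd4 with copies. Without Gm26917, a single highly counted RNA, in the denominator, the share of counts was 7.13% for rRNA, 1.03% for protein genes and 8.16% for all members. With copies it was 1.38% for protein genes and 7.63% for all members. Neighbours apart numbered 4, 7 with posterior mean counts, 8 with copies and 3 to 5 without 1 library. Without 1 library, ratios stayed within 0.61 to 0.78 (mt-Atp8 to mt-Atp6), -3.81 to -3.02 (mt-Co3 to mt-Co1), -4.80 to -4.69 (mt-Nd1 to mt-Rnr2), -0.45 to -0.29 (mt-Nd4l to mt-Nd4), -4.50 to -4.38 (mt-Nd6 to mt-Cytb) and -0.06 to -0.04 (mt-Rnr2 to mt-Rnr1), and shares within 6.14% to 6.31% (rRNA), 0.881% to 0.921% (protein) and 7.03% to 7.22% (all members). In all, 88 values were labelled as unchanged, among them values given here. Ratios so labelled kept their sign, and shares moved by less than the spread between libraries. Numbers of genes, members or neighbours had only to stay near the main number, so the 123 genes called with spike-in scaling were included. The ratio of mt-Atp8 to mt-Atp6 has no value in the second quantification, which lists mt-Atp8 at 0. With posterior mean counts it was 0.0025, and that of mt-Co3 to mt-Co1 was -1.55. Adjusted p ranged up to 1 for mt-Co2 and mt-Co3 and from 0.00451 to 1 for mt-Nd4l over the settings; mt-Nd4l was not called with spike-in scaling (0.999) or edgeR's common dispersion (0.297). The causes were not tested. Depth leaves mt-Nd6 with 315 to 370 counts, and TPM of mt-Atp8 rests on a short effective length.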
